A study of Homo sapiens with 9 samples.

Results

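The proteasome subunits examined here are the genes whose symbol is PSMA, PSMB, PSMC, PSMD or PSME followed by a number, without the immunoproteasome subunits PSMB8 and PSMB9, which are given beside them. They were chosen by name and not by their values. Probes present on both array versions gave 36 such genes among 12195 genes and unnamed probes that were tested, each gene by its brightest probe. Another 2 genes with these prefixes, PSMC3IP and PSME3IP1, are no subunits and were left out. PSMA7, PSMC5, PSMD7 and PSMD13 were not analysed here. By subcomplex the 36 genes fell into 7 of the alpha ring, 8 of the beta ring, 5 ATPases and 3 other subunits of the base, 6 of the lid, 3 chaperones of base assembly and 4 proteasome activators.

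The cells were AGS, an established human gastric adenocarcinoma line. The sample labels and the array methods do not state the oxygen level of these cultures. The paper names normoxia for other experiments on these lines. HIF- cells carried a stable, lentivirally delivered short hairpin RNA against HIF1A, and the control cells (SCR) carried a scrambled hairpin in the same way, so that both groups were transduced lines of 1 parent. Whether either line derives from 1 clone is not given in the sources used here. Each group had 3 biological replicates: replicates 1 and 2 gave 1 HIF- and 1 SCR array each on the Illumina HumanRef-8 BeadChip, and replicate 3 gave 3 HIF- and 2 SCR arrays on the HumanHT-12 BeadChip, as technical replicates that were averaged. All values given are normalized log2 signals or their HIF- minus SCR differences, and in such bulk extracts fewer cells with a transcript and less transcript per cell cannot be told apart.

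The proteasome is the protease that degrades most short-lived proteins of the cell once they carry a ubiquitin chain. Its core particle is a barrel of outer alpha rings, which gate the entry, and inner beta rings, in which the catalytic subunits PSMB6, PSMB5 and PSMB7 cut the chain. A regulatory particle docks on the barrel, its base unfolding the substrate with a ring of ATPases and its lid removing the ubiquitin. In oxygenated cells HIF-1α is itself one of its substrates, after hydroxylation and ubiquitination by the VHL ligase.

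The knock-down was seen in every replicate. HIF1A, the gene of the labile HIF-1α subunit and the target of the hairpin, had a signal of 6.35, 5.33 and 5.95 in HIF- cells and 9.02, 7.57 and 7.97 in SCR cells of replicates 1, 2 and 3. It fell by 2.31 on the log2 scale (SE 0.16), or 4.96-fold (limma, adjusted p = 0.00443). The share of probes detected at a detection p under 0.01 was between 33.6% and 55.6% over the 9 arrays. Of 8 epithelial markers 6 were detected on all 9 arrays, while the differentiation keratin KRT20 was detected on 0. Of 10 markers of leukocytes, fibroblasts, endothelium and erythrocytes 6 were detected on no array, CD68 and LYZ were detected on all 9, COL1A1 on 8 and PECAM1 on 3. The summed level of these other-cell markers was 9.99 to 11.25 in HIF- samples and 10.03 to 11.48 in SCR samples. Most of this sum was LYZ, with 9.51, 11.07 and 10.37 in HIF- samples and 9.63, 11.35 and 10.63 in SCR samples. The summed level of the epithelial list was 13.08 to 13.53 in HIF- samples and 12.93 to 13.64 in SCR samples.

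No proteasome subunit passed the test between HIF- and SCR cells. Of the 36 subunits 35 passed the filter on dim probes and were tested, and 0 were called higher and 0 lower at an adjusted p under 0.05 (limma with the replicate as a block, Benjamini-Hochberg over all 12195 features). The background was as sparse, since 0.0738% of all features were called higher and 0.041% lower. The lowest adjusted p of a subunit was 0.652. The t-test of the methods, which ignores the pairing by replicate, gave 0 subunits at its unadjusted threshold. Few of all features passed it, as counted below, and the shift between replicates enters its error, so this 0 adds little. At an unadjusted p under 0.05, 0 subunits were higher against a background of 3.41%, and 1, PSMA2, was lower against a background of 4.13%. The 95% intervals of all 35 mean differences lay inside a 2-fold change in either direction. The lowest bound of any interval was 1.52-fold lower, the highest 1.76-fold higher, and the median distance from the mean to a bound was 0.30 on the log2 scale. The median difference of the 36 subunits was -0.021, and that of all features -0.0076.

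The sign of the difference seldom held over the replicates. Of the 35 subunits 7 had a lower signal in HIF- than in SCR cells in all 3 replicates (20%), against 17.4% of all features, and 1, PSMB3, had a higher signal in all 3 (2.86%), against 14.5% of all features. The share of subunits lower throughout was thus near the background. The differences of the subunits also spread unequally over the replicates: over the 36 genes the SD was 0.37, 0.13 and 0.11 in replicates 1, 2 and 3, where all features had 0.39, 0.33 and 0.26. Bright features differ from all features in this spread, and 29 of the 35 tested subunits were in the brightest of 4 equal bins by mean signal. The median absolute deviation in that bin was 0.41, 0.15 and 0.17, against 0.32, 0.23 and 0.17 for all features. Within 1.25-fold of SCR lay 22 subunits in replicate 1, 35 in replicate 2 and 35 in replicate 3. Across genes, the Spearman correlation of the subunits' differences was 0.39 between replicates 1 and 2, -0.19 between replicates 1 and 3 and 0.045 between replicates 2 and 3, where all features had 0.20, 0.061 and 0.19 (35 genes, which share their arrays and are no independent replicates).

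**Figure D1:**
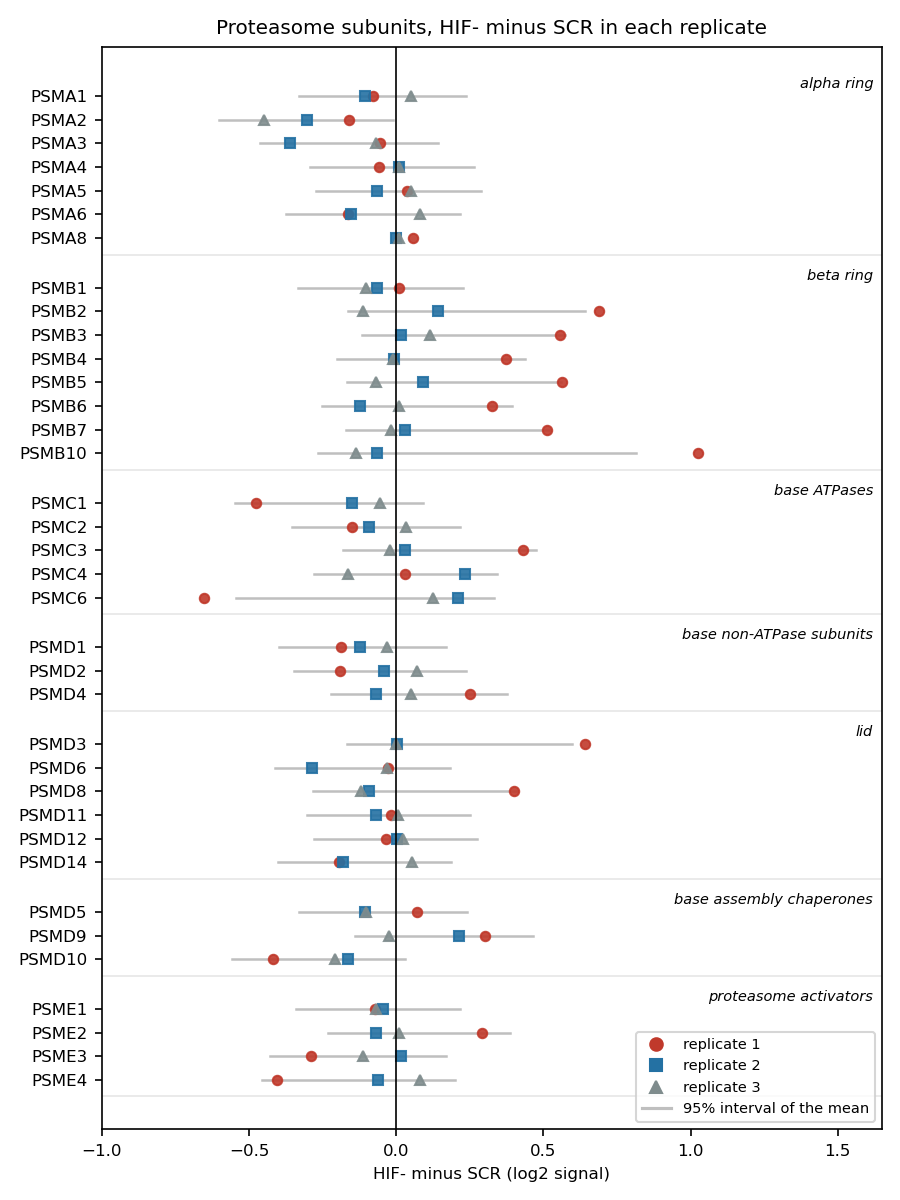
HIF- minus SCR difference in normalized log2 signal (x axis) of each of the 36 subunits (y axis, by subcomplex) in replicates 1, 2 and 3, with the 95% interval of the mean from limma as a grey line (none for PSMA8, which was not tested). The 8 beta ring subunits lie at or right of 0 in replicate 1, between 0.0088 and 1.02, and close to 0 in replicates 2 and 3.

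The beta ring was where the replicates diverged most plainly. In replicate 1 all 8 of its subunits had a higher signal in HIF- than in SCR cells, with a median difference of 0.53, whereas the median was 0.0045 in replicate 2 and -0.044 in replicate 3. Above 0 were 4 of the 8 in replicate 2 and 2 of the 8 in replicate 3. Of all features 47.1%, 48.7% and 48.7% were above 0 in replicates 1, 2 and 3. PSMB10, the inducible catalytic subunit that takes the place of PSMB7 in the immunoproteasome, had the widest split. Its signal was 10.31, 10.66 and 9.46 in HIF- cells and 9.28, 10.72 and 9.60 in SCR cells of replicates 1, 2 and 3. It was thus 2.03-fold higher in HIF- cells of replicate 1 and slightly lower in the other two, and the groups overlapped. The mean difference of 0.27 (SE 0.23) had an interval of -0.27 to 0.81 and an adjusted p of 0.740 (limma).

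The constitutive catalytic subunits had the same shape. PSMB5, the chymotrypsin-like subunit and the main target of bortezomib, had 11.69, 11.31 and 10.80 in HIF- cells and 11.13, 11.22 and 10.87 in SCR cells. PSMB7, the trypsin-like subunit, had 11.81, 11.67 and 10.72 in HIF- cells and 11.29, 11.64 and 10.74 in SCR cells. PSMB6, the caspase-like subunit, had 12.41, 12.02 and 11.49 in HIF- cells and 12.08, 12.14 and 11.48 in SCR cells. All 3 were higher in HIF- cells of replicate 1 by 0.33 to 0.56 and differed by 0.12 or less in either direction in replicates 2 and 3. Their mean differences were 0.20 for PSMB5 (SE 0.15), 0.17 for PSMB7 (SE 0.15) and 0.07 for PSMB6 (SE 0.14), with adjusted p-values of 0.726, 0.741 and 0.881 (limma).

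Among the structural beta subunits, PSMB3 was the 1 tested subunit of the 35 above 0 in every replicate. Its signal was 12.26, 12.46 and 11.25 in HIF- cells and 11.70, 12.44 and 11.14 in SCR cells, so that the differences of 0.55, 0.017 and 0.11 came mostly from replicate 1. The mean difference was 0.23 (SE 0.15, adjusted p = 0.703, limma). PSMB2 (0.69, 0.14 and -0.11) and PSMB4 (0.37, -0.0077 and -0.0100) were higher in HIF- cells of replicate 1 and turned sign at least once after it. PSMB1 had the lowest mean difference of the ring, with 12.33, 12.24 and 11.71 in HIF- cells and 12.32, 12.30 and 11.82 in SCR cells. It differed by 0.0088 in replicate 1, where the other 7 were at least 1.25-fold higher. The thymic subunit PSMB11 was probed on the HumanHT-12 version alone and was detected on 0 of its 5 arrays.

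**Figure D2:**
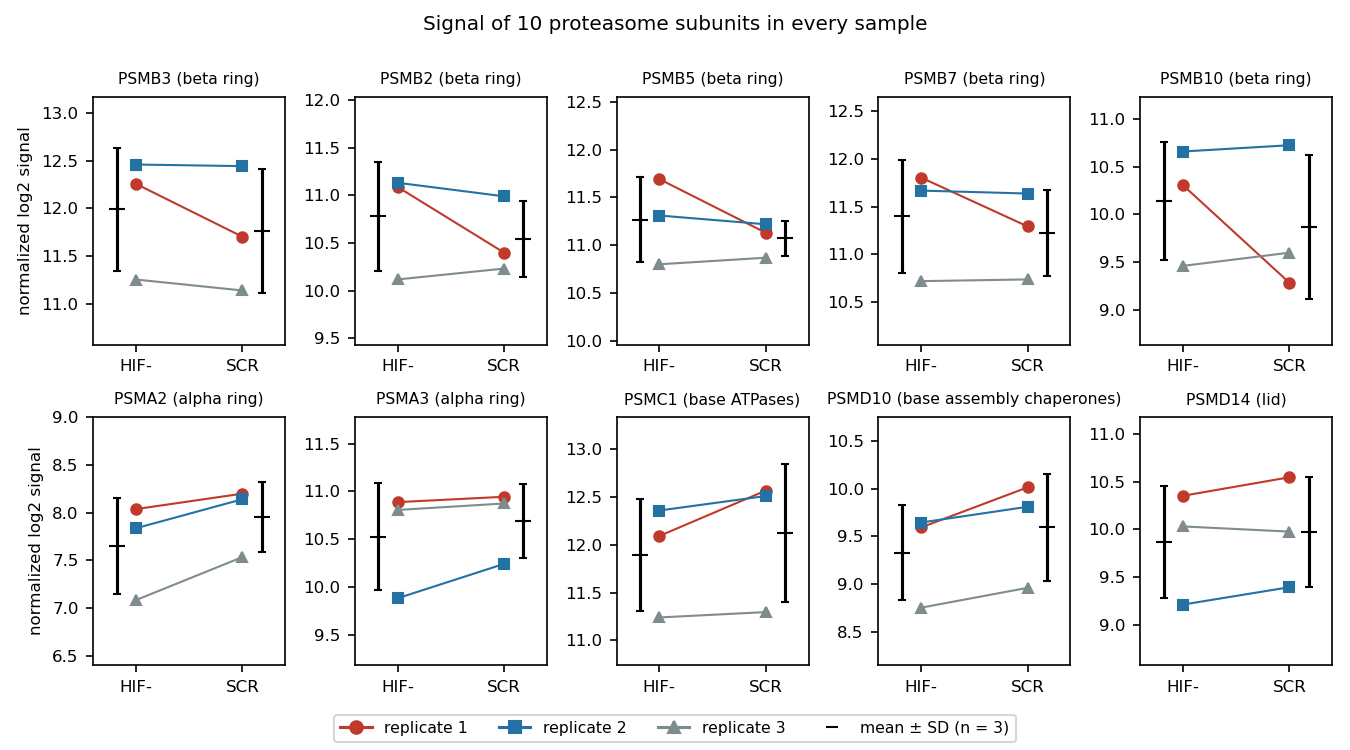
Normalized log2 signal (y axis, each panel spanning the same range around its own centre) of 10 subunits in HIF- and SCR cells, with a line joining the samples of each replicate and the mean ± SD of 3 replicates in black. The red lines of replicate 1 slope down to SCR for the 5 beta ring subunits of the upper row, while the lines of PSMA2 and PSMD10 in the lower row slope up to SCR in all 3 replicates.

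In replicate 1, 10 of the 35 tested subunits were at least 1.25-fold higher in HIF- cells (28.6%), against 16.4% of all features, and 4 were at least 1.25-fold lower (11.4%), against 18.3%. The 10 were PSMB2, PSMB3, PSMB4, PSMB5, PSMB6, PSMB7 and PSMB10 of the beta ring, the ATPase PSMC3 and the lid subunits PSMD3 and PSMD8. The 4 were PSMC1, PSMC6, PSMD10 and PSME4. In replicate 2 the counts were 0 higher, against 11.9% of all features, and 1 lower (PSMA3), against 12.6%. In replicate 3 they were 0 higher, against 6.7%, and 1 lower (PSMA2), against 5.19%.

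Some measures of the arrays moved with the values of replicate 1. There the median deposited log2 signal was 5.34 on the HIF- array and 5.59 on the SCR array and the upper quartile 7.88 on the HIF- array and 8.33 on the SCR array, while in replicate 2 the medians were 4.56 on the HIF- array and 4.55 on the SCR array. Of the 35 subunits 29, with all 8 of the beta ring, were in the brightest of 4 equal bins of features by mean signal, in which 22.6% of features were at least 1.25-fold higher in HIF- cells of replicate 1, against 6.4% in the dimmest bin. The brightest bin was wider and not shifted upward, with a median difference of -0.051 in replicate 1, against 0.0076 in the dimmest bin, and a median absolute deviation of 0.41, against 0.17. Lists of ribosomal and respiratory chain proteins also stood higher in HIF- cells of replicate 1 and not after it. The median difference of 76 mitochondrial ribosomal proteins was 0.54, 0.045 and -0.061 in replicates 1, 2 and 3. That of 74 proteins of the respiratory chain and ATP synthase was 0.49, -0.0025 and -0.15, and that of 75 cytosolic ribosomal proteins 0.25, 0.020 and -0.0085. The part of array brightness in the beta ring values was not tested. Each replicate was a BeadChip of its own, so the values per replicate are also the values within each chip.

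**Figure D3:**
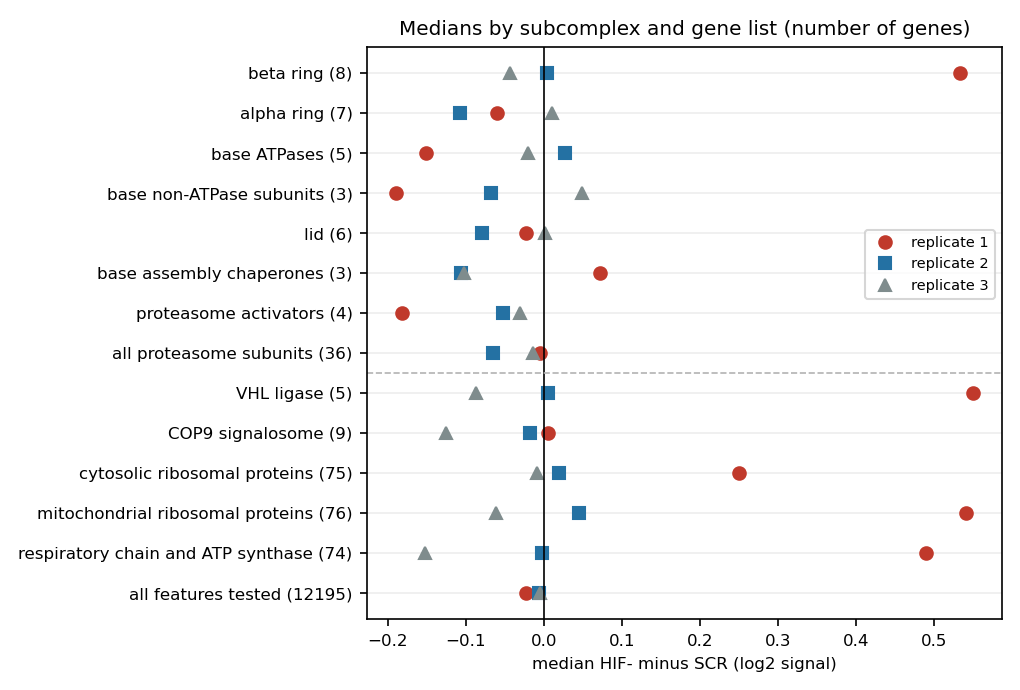
Median HIF- minus SCR difference in normalized log2 signal (x axis) of each subcomplex and comparison list (y axis, number of measured genes in parentheses) in replicates 1, 2 and 3. The beta ring (0.53), the VHL ligase (0.55) and the mitochondrial ribosomal proteins (0.54) lie far right in replicate 1 only, while the median of all features stays within 0.022 of 0.

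**Figure D4:**
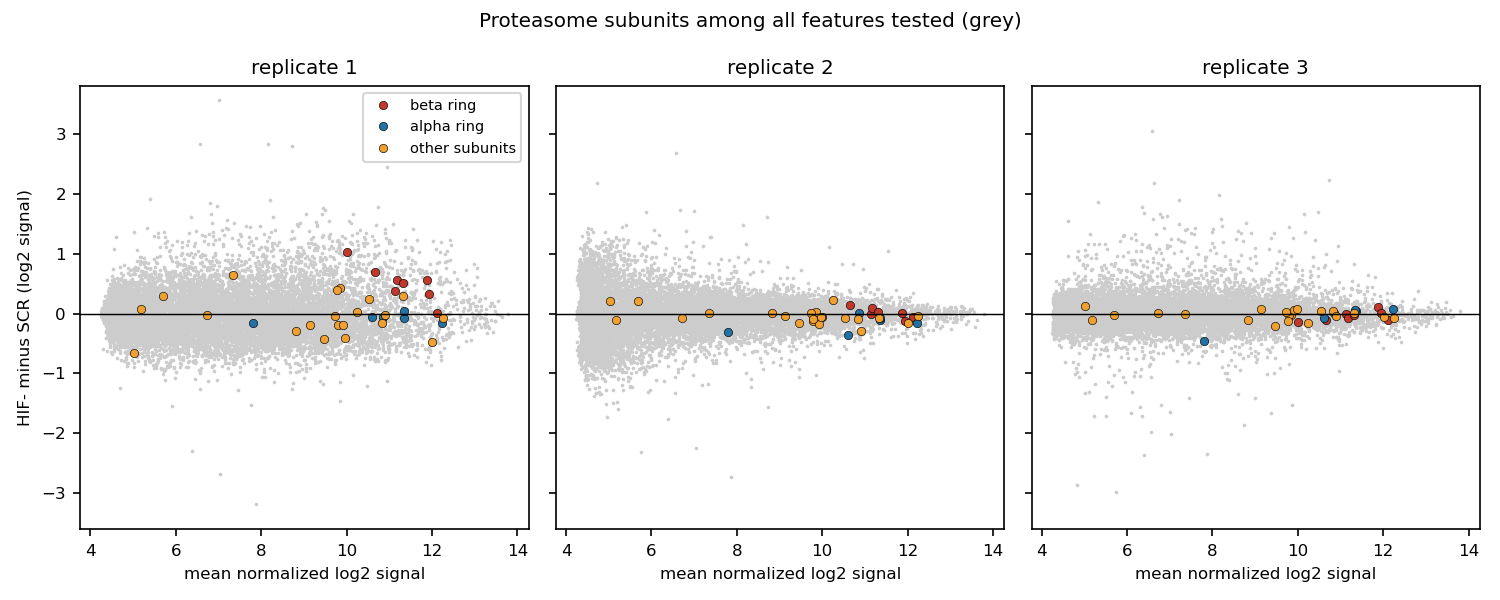
HIF- minus SCR difference in log2 signal (y axis) against the mean normalized log2 signal (x axis) of the 12195 features tested (grey) in each replicate, with the 35 tested subunits in colour. Most subunits, 29 of 35, lie in the brightest of 4 equal bins, and in replicate 1 the beta ring subunits sit above the other subunits of like signal.

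The promoters of 4 subunits are shown, which were picked by their values in these data and did not pass the test. PSMB3 was higher in all 3 replicates, PSMB10 had the largest single difference, and PSMA2 and PSMD10 had the lowest mean differences. Each window runs from 250 bases before to 50 bases after the annotated start (RefSeq, GRCh38.p14, 5′ to 3′ on the strand of the gene). The windows lie at chr17:38752491-38752790 (plus strand) for PSMB3, chr16:67936801-67937100 (minus strand) for PSMB10, chr7:42932125-42932424 (minus strand) for PSMA2 and chrX:108091493-108091792 (minus strand) for PSMD10. Capitals mark matches, on either strand, to ACGTG (the core of the HIF binding element), TGACNNNGC (the core of the antioxidant response element, which NFE2L1 and NFE2L2 bind) and CCAAT (the NF-Y box), and no match of one motif overlapped a match of another in these 4 windows.
PSMB3: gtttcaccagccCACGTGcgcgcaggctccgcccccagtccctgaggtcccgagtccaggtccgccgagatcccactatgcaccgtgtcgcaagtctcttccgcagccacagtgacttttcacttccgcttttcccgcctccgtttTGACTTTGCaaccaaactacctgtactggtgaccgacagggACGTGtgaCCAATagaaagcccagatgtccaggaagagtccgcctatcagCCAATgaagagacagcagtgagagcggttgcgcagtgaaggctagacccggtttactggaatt
PSMB10: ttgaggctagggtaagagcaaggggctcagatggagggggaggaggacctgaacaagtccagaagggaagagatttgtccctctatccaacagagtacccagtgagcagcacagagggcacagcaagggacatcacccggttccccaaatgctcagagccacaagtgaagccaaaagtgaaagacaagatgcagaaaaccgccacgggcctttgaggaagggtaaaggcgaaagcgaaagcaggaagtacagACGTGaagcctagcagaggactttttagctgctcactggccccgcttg
PSMA2: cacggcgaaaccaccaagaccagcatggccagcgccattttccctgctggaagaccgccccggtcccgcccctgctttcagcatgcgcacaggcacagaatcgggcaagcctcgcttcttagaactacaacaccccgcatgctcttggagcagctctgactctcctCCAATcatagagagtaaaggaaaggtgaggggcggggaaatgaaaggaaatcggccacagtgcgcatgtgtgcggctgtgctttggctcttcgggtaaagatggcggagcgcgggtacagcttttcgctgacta
PSMD10: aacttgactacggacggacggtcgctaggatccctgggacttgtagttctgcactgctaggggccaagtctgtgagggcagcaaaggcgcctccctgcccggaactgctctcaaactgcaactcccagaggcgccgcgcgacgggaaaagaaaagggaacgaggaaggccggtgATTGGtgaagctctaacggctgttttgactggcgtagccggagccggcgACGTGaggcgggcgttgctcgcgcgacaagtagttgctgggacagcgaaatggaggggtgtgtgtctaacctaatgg

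Counted from the start, PSMB3 held ACGTG at -237 and -63, a match of ACGTG on the opposite strand at -238 that shares its bases with the first of these, TGACNNNGC at -104 and CCAAT at -55 and -13. PSMB10 held ACGTG at 3, just inside the transcript. PSMA2 held CCAAT at -84, and PSMD10 held ACGTG at -27 and CCAAT, on the opposite strand, at -76. Of the 36 subunits 32 matched the table, with 37 windows, and PSMB1, PSMB6, PSMB7 and PSMD4 did not. ACGTG was in 24.3% of the subunits' windows and in 21.4% of all 35116 windows. TGACNNNGC was in 29.7% of the subunits' windows and 13.3% of all windows, and CCAAT in 40.5% of the subunits' windows and 34.6% of all windows. These matches describe the letters of the windows only. Of the 7 subunits below 0 in all 3 replicates 1, PSMD10, held ACGTG.

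The alpha ring, whose subunits gate the barrel, had the 1 subunit with an unadjusted p under 0.05. PSMA2 had a signal of 8.04, 7.84 and 7.08 in HIF- cells and 8.198, 8.14 and 7.53 in SCR cells. It was lower in HIF- cells by 0.16, 0.30 and 0.45 in replicates 1, 2 and 3, although the groups overlapped across replicates. The mean difference was -0.31 (SE 0.13, interval -0.60 to -0.010), with an unadjusted p of 0.0443 and an adjusted p of 0.652 (limma). In replicate 3 its 3 HIF- arrays lay below both SCR arrays. PSMA2 and the ATPase PSMC4 were the 2 subunits whose HIF- arrays lay below the SCR arrays there, against 13.1% of all features. PSMA5 and PSMA6 were the 2 whose HIF- arrays lay above, against 13.2%. Dimmer probes of PSMA6 (-0.068) and PSMC4 (-0.12) on the HumanHT-12 version alone had overlapping HIF- and SCR arrays.

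PSMA3 was lower in HIF- cells in all 3 replicates, mainly in replicate 2. Its signal was 10.89, 9.88 and 10.80 in HIF- cells and 10.94, 10.24 and 10.87 in SCR cells (mean difference -0.16, SE 0.13). A second, dimmer probe of PSMA3 had differences of 0.13, -0.32 and -0.29, so it turned sign in replicate 1. PSMA5 had the highest mean difference among the tested alpha subunits, 0.0070, with 11.46, 11.50 and 11.09 in HIF- cells and 11.42, 11.56 and 11.04 in SCR cells. PSMA8, the alpha subunit of the testis, was detected on 0 of 9 arrays and had 4.14, 4.15 and 4.19 in HIF- cells and 4.08, 4.15 and 4.18 in SCR cells, at the floor of the scale. PSMA1, PSMA4 and PSMA6 had mean differences between -0.079 and -0.015. A dimmer probe of PSMA1, detected on 9 of 9 arrays, had 0.45, -0.032 and -0.15 (mean 0.089). It was thus higher in HIF- cells of replicate 1, where the brightest PSMA1 probe had -0.079. The median of the ring, with the untested PSMA8 in it, was -0.060, -0.11 and 0.010 in replicates 1, 2 and 3. The median in replicate 3 was the value of PSMA8 itself.

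In the base, the ATPases that unfold the substrate had no common direction, with medians of -0.15, 0.028 and -0.020. PSMC1 (also known as RPT2) had 12.09, 12.36 and 11.24 in HIF- cells and 12.57, 12.51 and 11.30 in SCR cells. It was lower in HIF- cells in each replicate, by 0.48 in replicate 1 and by 0.056 in replicate 3, with a mean difference of -0.23 (SE 0.14, adjusted p = 0.703, limma). Its second probe had -0.34, 0.014 and -0.10. PSMC3 (RPT5) was higher in HIF- cells of replicate 1 and close to SCR after it. It had 10.53, 9.89 and 9.33 in HIF- cells and 10.11, 9.86 and 9.35 in SCR cells (mean difference 0.15, SE 0.14). The common probe of PSMC6 was dim, being detected on 6 of 9 arrays, and gave -0.65, 0.21 and 0.13, while a brighter probe on the HumanHT-12 version alone gave 0.060 in replicate 3.

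The base subunits that are no ATPases include the scaffolds PSMD1 and PSMD2 and the ubiquitin receptor PSMD4. PSMD1 had 10.15, 10.10 and 8.94 in HIF- cells and 10.34, 10.22 and 8.98 in SCR cells, below SCR in each replicate (mean difference -0.11, SE 0.12). PSMD4 had 10.66, 10.99 and 10.07 in HIF- cells and 10.41, 11.06 and 10.02 in SCR cells, with a mean difference of 0.08 (SE 0.13). PSMD2, which also receives the shuttle factors, had differences of -0.19, -0.043 and 0.071.

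In the lid, the deubiquitinase PSMD14, which cuts the ubiquitin chain off the substrate, had 10.35, 9.21 and 10.03 in HIF- cells and 10.55, 9.39 and 9.98 in SCR cells. It was lower in HIF- cells by 0.19 and 0.18 in replicates 1 and 2 and higher by 0.054 in replicate 3 (mean difference -0.11, SE 0.13, adjusted p = 0.803, limma). PSMD3, another lid subunit, had 8.002, 7.35 and 7.01 in HIF- cells and 7.36, 7.35 and 7.01 in SCR cells. Its difference of 0.64 in replicate 1 thus stood beside differences of 0.0031 and -0.0013 in replicates 2 and 3. PSMD6 had 11.08, 10.61 and 10.85 in HIF- cells and 11.11, 10.89 and 10.89 in SCR cells, below SCR in each replicate but by more than 0.04 only in replicate 2 (mean difference -0.12, SE 0.13). PSMD8, PSMD11 and PSMD12 had mean differences between -0.027 and 0.063, and the medians of the lid were -0.022, -0.080 and 0.0016.

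The chaperones PSMD5, PSMD9 and PSMD10 help the base to assemble and leave before the finished particle works. PSMD10, known as gankyrin, had 9.59, 9.65 and 8.75 in HIF- cells and 10.01, 9.81 and 8.96 in SCR cells. It was lower in HIF- cells by 0.42, 0.17 and 0.21, with a mean difference of -0.26 (SE 0.13, interval -0.56 to 0.03, adjusted p = 0.671, limma). Its other 2 common probes were also below SCR in all 3 replicates, with mean differences of -0.14 and -0.30. It was the 1 subunit with 3 probes past the filter. PSMD9 had 6.11, 6.35 and 4.85 in HIF- cells and 5.81, 6.14 and 4.88 in SCR cells (mean difference 0.16, SE 0.13), and was detected on 8 of 9 arrays. PSMD5 was detected on 4 of 9 arrays.

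The activators open the core without the regulatory particle. PSME1 and PSME2, which form the interferon-inducible cap, had mean differences of -0.062 and 0.08. PSME2 had 11.33, 11.41 and 11.36 in HIF- cells and 11.03, 11.48 and 11.35 in SCR cells. The nuclear activator PSME3 had 9.22, 9.31 and 7.75 in HIF- cells and 9.51, 9.29 and 7.86 in SCR cells, the lowest mean difference of the activators at -0.13 (SE 0.13). PSME4, which caps proteasomes in the nucleus and acts on histones, had -0.40, -0.061 and 0.079, so that its largest difference was again in replicate 1. PSME1 was below SCR in each replicate by 0.044 to 0.074.

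The precision can be read from the technical arrays of replicate 3. The median SD of a subunit over the 3 HIF- arrays was 0.12 and over the 2 SCR arrays 0.076, giving a median SE of 0.10 for the replicate 3 difference from array error alone. The SE of the mean difference over 3 replicates was 0.12 to 0.23. The spread of the subunits' differences in replicate 3, an SD of 0.11, was of the size of this array error. The beta ring differences of replicate 1, with their median of 0.53, came from single arrays without a technical repeat. The SD of the signals of a group also holds the shift between the array versions.

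Other genes of the proteasome system gave 0 calls in either direction with limma. At an unadjusted p under 0.05 (limma), 3.41% of all features were higher and 4.13% lower, which is the background for the counts in these lists. Of 5 further proteins of the particle or bound to it (ADRM1, SEM1, UCHL5, USP14 and PSMF1) 4 passed the filter, 0 had an unadjusted p under 0.05, and the medians were 0.030, 0.089 and -0.022. SEM1, the smallest lid subunit, had the highest difference (0.61, 0.089 and -0.082) and USP14, a deubiquitinase bound to the base, the lowest (-0.36, -0.27 and -0.022). Of the assembly factors 5 of 6 measured passed the filter and 0 had an unadjusted p under 0.05. The medians of all 6, with POMP, which was detected on 0 arrays, were -0.048, -0.024 and 0.015. PSMG3, a chaperone of the alpha ring, had 7.10, 7.47 and 6.14 in HIF- cells and 6.19, 7.25 and 6.07 in SCR cells, the highest difference of this list (mean 0.40, SE 0.18, adjusted p = 0.670, limma), and PAAF1 had the lowest mean, -0.15.

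Of the interferon-inducible set, PSMB8, which takes the place of PSMB5, was higher in each replicate. It had 9.05, 9.88 and 7.95 in HIF- cells and 8.48, 9.65 and 7.70 in SCR cells, with a mean difference of 0.35 (SE 0.13), an unadjusted p of 0.0303 and an adjusted p of 0.587 (limma). PSMB9, which takes the place of PSMB6, went the other way on the mean, with 5.14, 6.55 and 4.76 in HIF- cells and 5.01, 7.12 and 4.73 in SCR cells, and was detected on 7 of 9 arrays. With PSMB10, the 3 inducible catalytic subunits thus had no shared direction over the replicates. The whole set of 5, with PSME1 and PSME2, had medians of 0.29, -0.066 and 0.0086.

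Among 9 measured regulators of proteasome genes, with medians of -0.28, -0.017 and -0.011, 0 passed the test (limma). At an unadjusted p under 0.05, 0 were higher, against 3.41% of all features, and 2 lower, against 4.13%. NFE2L1, the transcription factor that raises subunit transcription when the proteasome is inhibited, had 8.02, 8.36 and 7.67 in HIF- cells and 7.83, 8.203 and 7.41 in SCR cells (mean difference 0.20, SE 0.12, adjusted p = 0.703, limma). MAFG, one of its small MAF partners, had the highest difference, 0.35, 0.26 and 0.21, with an adjusted p of 0.662. SEL1L, the partner of the ligase SYVN1 in degradation at the endoplasmic reticulum, had the lowest mean, -0.48, but was detected on 3 of 9 arrays. SYVN1, which ubiquitinates NFE2L1, was detected on all 9 and had 9.06, 8.03 and 8.35 in HIF- cells and 9.40, 8.57 and 8.57 in SCR cells, an adjusted p of 0.559 and a mean difference of -0.37 (SE 0.13). Of the 9 regulators 2 (NFE2L1 and MAFG) were above SCR in all 3 replicates, against 14.5% of all features. Below SCR in all 3 were 4 (SYVN1, SEL1L, NGLY1 and MAFF), against 17.4%, and MAFF was detected on 4 of 9 arrays. A link between any of these genes was not tested.

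The VHL ligase, which marks hydroxylated HIF-1α for the proteasome, had 0 of 5 members called by limma and 0 at an unadjusted p under 0.05. Its adaptor ELOB had the highest difference, with 11.96, 12.35 and 11.16 in HIF- cells and 10.74, 12.35 and 11.29 in SCR cells (1.22, -0.0020 and -0.14). VHL itself had 9.70, 9.38 and 9.57 in HIF- cells and 9.53, 9.503 and 9.41 in SCR cells. The scaffold CUL2 had the lowest mean difference, -0.13, and ELOC and RBX1 were higher in HIF- cells of replicate 1 by 0.86 and 0.55. The median of the 5 was 0.55, 0.0050 and -0.087, a pattern over replicates like that of the beta ring.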

How the data were processed

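The authors deposited, for the 9 arrays, tables called non-normalized in which every probe has a log2 signal with its detection p-value, and processed tables of log2 values quantile-normalized within each replicate. RMA and beadarray are the tools the study methods give. Since the tests had been planned for linear signals, the log2 signals were first raised as powers of 2. Background was corrected with nec of limma 3.58.1 (R 4.3.3) from the detection p-values (offset 16), and arrays were quantile-normalized within array version and returned to log2. Technical arrays were averaged, the 24525 common probes were joined, and 9839 probes were discarded because they lay under their array's median in each of the 6 samples. The brightest probe per gene left 11073 named genes and 1122 unnamed probes. Symbols came from the platform annotation, brought up to date with the GRCh38.p14 gene table. Differences are HIF- minus SCR from limma (lmFit and eBayes without a trend, 2 residual and 5.25 prior degrees of freedom), blocked by replicate, with Benjamini-Hochberg adjustment. Both groups of a replicate shared a BeadChip, and their deviations from the group means correlated at 0.62, 0.80 and 0.85. The common array version could also produce such correlations.

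The fit was tested on simulated data. The members, the lists and the alternatives were chosen with earlier results of these data known. Named with values in every sample were up to 6 members per direction with 1 sign in all 3 replicates, the catalytic subunits, PSMD14, and the highest and lowest member of each subcomplex; other lists gave their highest and lowest member, and NFE2L1, SYVN1, VHL, PSMB9, COPS6, RBX1 and other genes beside these were named after their values were seen. The alternatives were other background corrections, normalizations, filters, probes and tests, the deposited processed values, no block, and each replicate left out. The number of arrays limits the precision.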

Additional observations from a re-analysis of the deposited data

How the results depend on the processing

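No proteasome subunit was called under any alternative. Over 488 fits of single subunits the lowest adjusted p was 0.0939, for PSMA2 without replicate 1 (-0.38). The median difference of the subunits was -0.0289 to 0.0020, that of the beta ring in replicate 1 was 0.51 to 0.65, and 9 to 11 subunits were at least 1.25-fold higher in replicate 1. Of the values of single subunits 479 moved by less than the SD over the replicates and 9 by more, and all 84 medians of subcomplexes moved by less. These counts say little about stability. Some settings change the filter or the test and not the value, and leaving out 1 replicate moves a mean by less than this SD. The median of the mean differences of the beta ring was 0.19 in the main fit and 0.0011 without replicate 1. The means of PSMA1 and PSME1 turned sign in 2 of 8 settings and those of PSMA5, PSMB1 and PSMD12 in 1, and those of 13 of the 36 subunits turned sign when 1 replicate was left out, among them PSMB4, PSMB6 and PSMB10 of the beta ring without replicate 1 (PSMB10 at -0.10).

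The count over all features, 14, was less stable. It was 8 with normexp and an offset of 50, 50 with scaling to a common median, 30 with all arrays normalized together, 0 with no filter on dim probes, 9 with the first technical array only and 40 at an adjusted p under 0.1. The methods' t-test gave 116 at its unadjusted threshold and 0 after Benjamini-Hochberg, and the methods' rank rule, rebuilt here, gave 93. With no replicate block the count was 2 with the array version as covariate. With neither, and all arrays normalized together at once, it was 1. The block changed no call of a subunit. Leaving out a replicate, with normalization and filter repeated, gave 67 to 364 calls (364 without replicate 1, 142 without replicate 2 and 67 without replicate 3), from fits with 1 residual and 26.0 to 60.8 prior degrees of freedom. The cause was not tested. The number of arrays limited what could be seen, the median 95% interval of a subunit reaching 0.30 on the log2 scale to either side of its mean.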

Other observations

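The COP9 signalosome, a complex built on the plan of the proteasome lid, removes NEDD8 from cullin ligases such as the VHL ligase. Of its 9 members 8 passed the filter and were tested, while COPS2 was detected on 0 arrays. The 9 had median differences of 0.0060, -0.018 and -0.13 in replicates 1, 2 and 3, the first being the value of COPS2. Of the 8 tested, 0 passed the test (limma). At an unadjusted p under 0.05, 0 were higher, against 3.41% of all features, and 1 lower, against 4.13%. COPS8, one of its core subunits, stood apart from the other tested members. It had 6.002, 6.15 and 5.97 in HIF- cells and 7.27, 6.92 and 7.02 in SCR cells, so that every HIF- sample was below every SCR sample. The mean difference was -1.03 (SE 0.14), with an unadjusted p of 0.00013 and an adjusted p of 0.0787 (limma). The other 7 tested members had mean differences between -0.19 (COPS4) and 0.13 (COPS6).

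Among 9 ubiquitin shuttles and segregase factors, which bring substrates to the proteasome, 0 passed the test (limma). At an unadjusted p under 0.05, 1 was higher, against 3.41% of all features, and 0 lower, against 4.13%. TXNL1, a thioredoxin bound to the lid, had the highest difference, with 6.21, 5.98 and 6.45 in HIF- cells and 5.77, 5.06 and 6.45 in SCR cells (mean 0.45, SE 0.18, adjusted p = 0.641, limma). UBQLN4 had the lowest mean, -0.26, below SCR in each replicate. UBB, a ubiquitin precursor, differed by 0, 0.033 and -0.035. The activating enzyme UBA6 was below SCR in each replicate (-0.56, -0.12 and -0.17), and UBA1 was not (0.25, -0.12 and -0.16).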
